A study of Homo sapiens with 4 samples.

Results

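The nuclear pore and the carriers that pass through it are described here by 53 genes out of 18417 measured, as they responded to LY101-4B in MiaPaCa2 cells. The genes were chosen by symbol, by a rule that uses no measured value but was drawn up with earlier results of these data known: every NUP gene with a number, the KPNA, KPNB, IPO and XPO genes, and TPR, RANBP2, RAE1, AAAS, SEH1L, NDC1, TNPO1, TNPO2, TNPO3, CSE1L and RAN. Each gene was read from a probe set annotated to that gene alone, the brightest one where there were several. The same list names NUP62, POM121 and RCC1, which stood only on probe sets shared with other genes and are not analysed here.

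MiaPaCa2 is an established human pancreatic carcinoma line. The cells received LY101-4B at 50 µM (2 cultures) or vehicle (2 cultures) for 24 h, and their total RNA was hybridised to Human Gene 1.0 ST arrays; the design text calls the cultures of a group biological replicates. The series title calls the compound an E2F inhibitor; E2F proteins are transcription factors of S-phase entry. A treatment note on the same samples names LY101-4D at a lower dose instead, whereas titles, agent labels and design give LY101-4B at 50 µM. Values are log2 expression levels after RMA, a procedure that equalises the arrays, so each difference is relative to the bulk of probe sets. Array medians lay between 5.88 and 5.97 log2 units, and the SD of the difference between replicate arrays over the 53 genes was 0.13 log2 units for LY101-4B and 0.07 for vehicle. The epithelial keratin KRT18 read 12.37 and 12.39 log2 units with LY101-4B, against 13.00 and 12.88 with vehicle. KRT8 fell with it (-0.84, limma adjusted p 0.00371). The leukocyte marker PTPRC lay between 3.36 and 3.56 on the 4 arrays, but CD68, also listed for leukocytes, lay between 7.93 and 8.21. Of 11 measured markers of leukocytes, endothelium, fibroblasts, acinar and islet cells, COL1A2 alone passed the test, 0.47 log2 units higher with LY101-4B (limma adjusted p 0.0167). COL1A2, listed for fibroblasts, read 10.40 and 10.33 with LY101-4B, against 9.87 and 9.92 with vehicle. The summed log2 level of the 11 ranged from 62.8 to 62.9 with LY101-4B and was 62.2 on each vehicle array, and the part of these markers in the results was not tested.

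The nuclear pore complex is a ring of many copies of nucleoporins set in the nuclear envelope. A scaffold of Y complexes and an inner ring, anchored by membrane proteins, holds a central channel of unfolded, phenylalanine-glycine repeat proteins; filaments project into the cytoplasm and a basket into the nucleus. Importins and exportins carry cargo through the channel, and the small GTPase Ran, bound to GTP in the nucleus and to GDP in the cytoplasm, sets the direction. Proliferating cells build new pores during interphase and rebuild all of them after mitosis.

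After LY101-4B, 31 of the 53 genes fell, 0 rose and 22 did not pass (limma, adjusted p under 0.05 over all 21214 gene-annotated probe sets). Of all 18417 genes, 10.7% fell and 8.88% rose by the same test. The median log2 difference was -0.46 over the 53 genes and 0.00 over all genes, and 49 of the 53 lay below 0. The falls ranged from 1.29-fold to 2.19-fold, and 17 of the 53 fell by at least 1.5-fold, as did 5.57% of all genes. The LY101-4B and vehicle arrays did not overlap for 46 of the 53 genes, against 58.0% of all genes. Among the brighter 50% of probe sets, tested on their own, 39 of 50 of these genes fell, against 27.1% of all genes there. RNA was taken from whole cultures, so less RNA per cell and fewer cells that express a gene cannot be told apart.

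Single arrays moved this count. Leaving out vehicle replicate 1 gave 11 genes that fell and leaving out vehicle replicate 2 gave 12; in these fits 4.16% and 3.88% of all genes fell. Over all 33297 rows of the deposited table, gene-annotated or not, 18 fell. The calls on SEH1L, NUP98, NUP210, AAAS, TPR, KPNA3, TNPO2, IPO8, IPO11, IPO5, XPO1, XPO4 and XPO7 ended in that fit. Calls on 11 genes held without any one of the 4 arrays: NUP107, NUP85, NUP160, NUP35, NUP205, NUP155, NUP93, NDC1, KPNA2, IPO4 and CSE1L. The same held for 3.49% of all genes. LY101-4B replicate 1 read below replicate 2 for 27 of the 31 genes that fell, as it did for 1588 of the 1973 genes that fell on the whole array. Vehicle replicate 1 read below vehicle replicate 2 for 24 of the 31 and for 1162 of the 1973. The vehicle arrays stood in this order for 36 of the 53 genes and for 9136 of all 18417. The median difference from the vehicle mean over the 53 genes was -0.52 on LY101-4B replicate 1 and -0.38 on replicate 2.

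**Figure D1:**
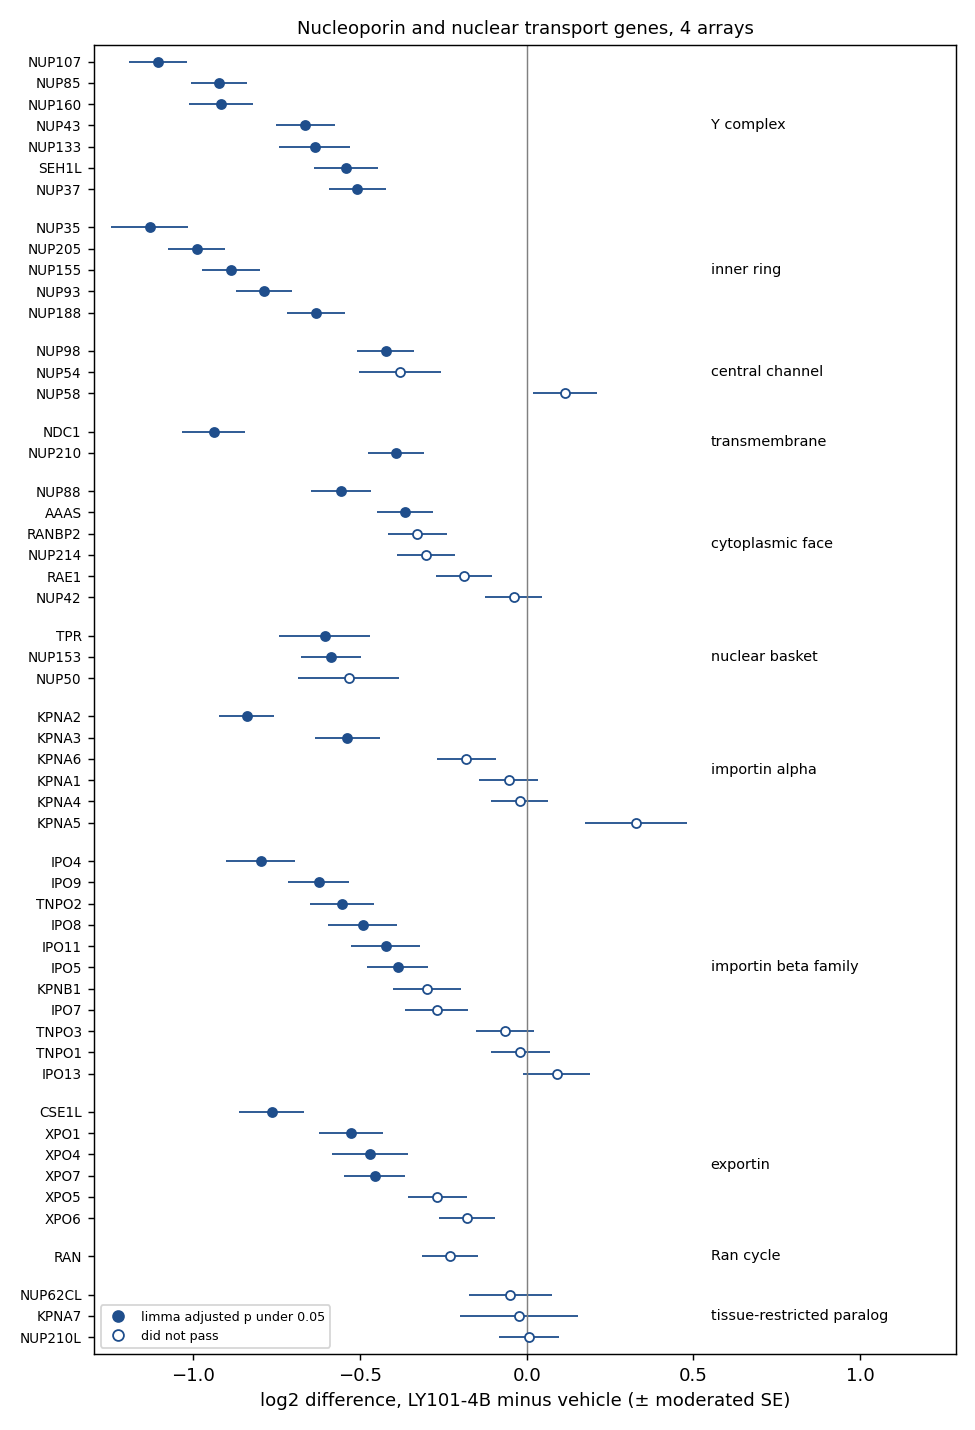
Log2 difference, LY101-4B minus vehicle (horizontal axis, bars are moderated SE, 2 arrays a group), for the 53 genes grouped by their place in nuclear transport; filled points passed at a limma adjusted p under 0.05. The 12 plotted genes of the Y complex and inner ring lie between -1.13 and -0.51 (SEC13 is not plotted here), while importin alpha genes spread from -0.84 to 0.33.

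Of the scaffold, the 12 genes of the Y complex and the inner ring among the 53 fell, with a median of -0.84 log2 units and folds from 1.42 to 2.19. The symbol rule leaves out SEC13, a further Y complex subunit, which rose by 0.62 log2 units (limma adjusted p 0.00619). In the Y complex, which coats the outer rings and also sits at kinetochores in mitosis, all 7 genes among the 53 fell. NUP107, a core subunit of its stem, read 9.01 and 9.09 log2 units with LY101-4B, against 10.13 and 10.18 with vehicle. The gap between the groups exceeded the gap between replicates, and the fall was 2.15-fold (-1.11 ± 0.09, SE; limma adjusted p 0.00143). NUP85, in an arm of the Y, read 8.64 and 8.69 with LY101-4B, against 9.60 and 9.57 with vehicle (1.90-fold, adjusted p 0.00201). NUP160, also in the arms, read 9.16 and 9.30 with LY101-4B, against 10.12 and 10.18 with vehicle (1.89-fold, adjusted p 0.00278). For these 3 genes both LY101-4B arrays lay below both vehicle arrays, by more than the replicates differed. Groups did not overlap, in either direction, for 58.0% of all genes. NUP43 fell 1.58-fold, the stem subunit NUP133 1.55-fold and SEH1L, shared with a nutrient-sensing complex, 1.46-fold. The smallest fall was that of NUP37, at 9.55 and 9.55 with LY101-4B, against 10.03 and 10.09 with vehicle (1.42-fold, adjusted p 0.0120). The calls on NUP133, SEH1L and NUP37 were lost on removal of one vehicle array, whichever it was, and that on NUP43 on removal of vehicle replicate 1 (adjusted p 0.0552).

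In the inner ring, which lines the channel and ties the scaffold to the membrane, 5 of 5 genes fell. NUP35, its membrane-binding subunit, read 7.36 and 7.58 log2 units with LY101-4B, against 8.52 and 8.68 with vehicle. Its fall of 2.19-fold (-1.13 ± 0.12, SE; limma adjusted p 0.00267) was the greatest among the 53 genes. NUP205, a large solenoid adaptor, read 9.65 and 9.71 with LY101-4B, against 10.65 and 10.69 with vehicle (1.99-fold, adjusted p 0.00182). NUP155, which bridges inner and outer rings, read 10.07 and 10.15 with LY101-4B, against 11.01 and 10.98 with vehicle (1.85-fold, adjusted p 0.00240). In all 3 the groups stood apart by more than the replicates differed, with NUP35 the most scattered. Groups did not overlap, in either direction, for 58.0% of all genes. NUP93, the linker that recruits the channel proteins, fell 1.73-fold (adjusted p 0.00314). NUP188, the paralog of NUP205, had the smallest fall of the ring, with 9.09 and 9.16 with LY101-4B against 9.74 and 9.77 with vehicle (1.55-fold, adjusted p 0.00633), and lost its call on removal of any one vehicle array.

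Membrane anchors fell as well, in 2 of 2 measured cases. NDC1, a transmembrane nucleoporin needed for pore insertion, read 9.73 and 9.64 log2 units with LY101-4B, against 10.57 and 10.69 with vehicle (1.92-fold, limma adjusted p 0.00255). NUP210, a lumenal ring protein known for a role in muscle differentiation in mouse, read 7.16 and 7.18 with LY101-4B, against 7.55 and 7.58 with vehicle. This fall of 1.31-fold (adjusted p 0.0265) was lost on removal of any one vehicle array or of LY101-4B replicate 1.

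Calls were fewer among the remaining nucleoporins. Of the 14 nucleoporins outside the Y complex and inner ring, with the membrane anchors among them, 7 fell and the median was -0.39; whether this differs from the scaffold was not tested. Of the channel's repeat proteins 1 of 3 fell. NUP98, a mobile repeat protein that binds RAE1 and mRNA export factors, read 9.98 and 10.03 log2 units with LY101-4B, against 10.43 and 10.42 with vehicle (1.34-fold, limma adjusted p 0.0216), a call lost on removal of any one vehicle array or of LY101-4B replicate 1. NUP54 had a difference of -0.38 (adjusted p 0.0904). NUP58, its partner in the channel, read 8.86 and 8.99 with LY101-4B, against 8.77 and 8.86 with vehicle, and was the nucleoporin with a difference above 0 outside the tissue-restricted genes (0.11, adjusted p 0.483).

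On the cytoplasmic face 2 of 6 genes fell. NUP88, which holds NUP214 at the pore, read 9.61 and 9.72 log2 units with LY101-4B, against 10.24 and 10.20 with vehicle (1.47-fold, limma adjusted p 0.0108), a call lost on removal of any one vehicle array. AAAS, which encodes ALADIN, the protein altered in triple A syndrome, read 8.37 and 8.34 with LY101-4B, against 8.72 and 8.73 with vehicle (1.29-fold, adjusted p 0.0328), a call lost on removal of any one of the 4 arrays and under cyclic loess. The values of the filament protein RANBP2 (-0.33, adjusted p 0.0529), of NUP214 (-0.30, 0.0643) and of the mRNA export factor RAE1 (-0.19, 0.193) did not pass. Their groups did not overlap, nor did those of 58.0% of all genes. RANBP2 has near-identical RGPD copies, so its value is uncertain. NUP42 read 8.17 and 8.22 with LY101-4B, against 8.24 and 8.23 with vehicle, a difference of -0.04 (limma adjusted p 0.805) and 0.00 under cyclic loess.

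In the nuclear basket 2 of 3 genes fell. TPR, the coiled-coil strut of the basket, read 8.79 and 9.09 log2 units with LY101-4B, against 9.45 and 9.65 with vehicle (1.52-fold, limma adjusted p 0.0299). NUP153, which anchors the basket, read 9.06 and 9.17 with LY101-4B, against 9.68 and 9.71 with vehicle (-0.59, adjusted p 0.00918). NUP50, which helps to release importin alpha from cargo, read 6.80 and 7.13 with LY101-4B, against 7.36 and 7.63 with vehicle. Replicate 1 read below replicate 2 in both groups, and the difference of -0.53 ± 0.15 (SE) did not pass (adjusted p 0.0622). It passed under median centring (0.0457), in the brighter 50% of probe sets (0.0240), with an intensity trend (0.0311) and without LY101-4B replicate 2 (0.0415). Removal of any one vehicle array ended the calls on TPR and NUP153, and removal of LY101-4B replicate 1 that on TPR.

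**Figure D2:**
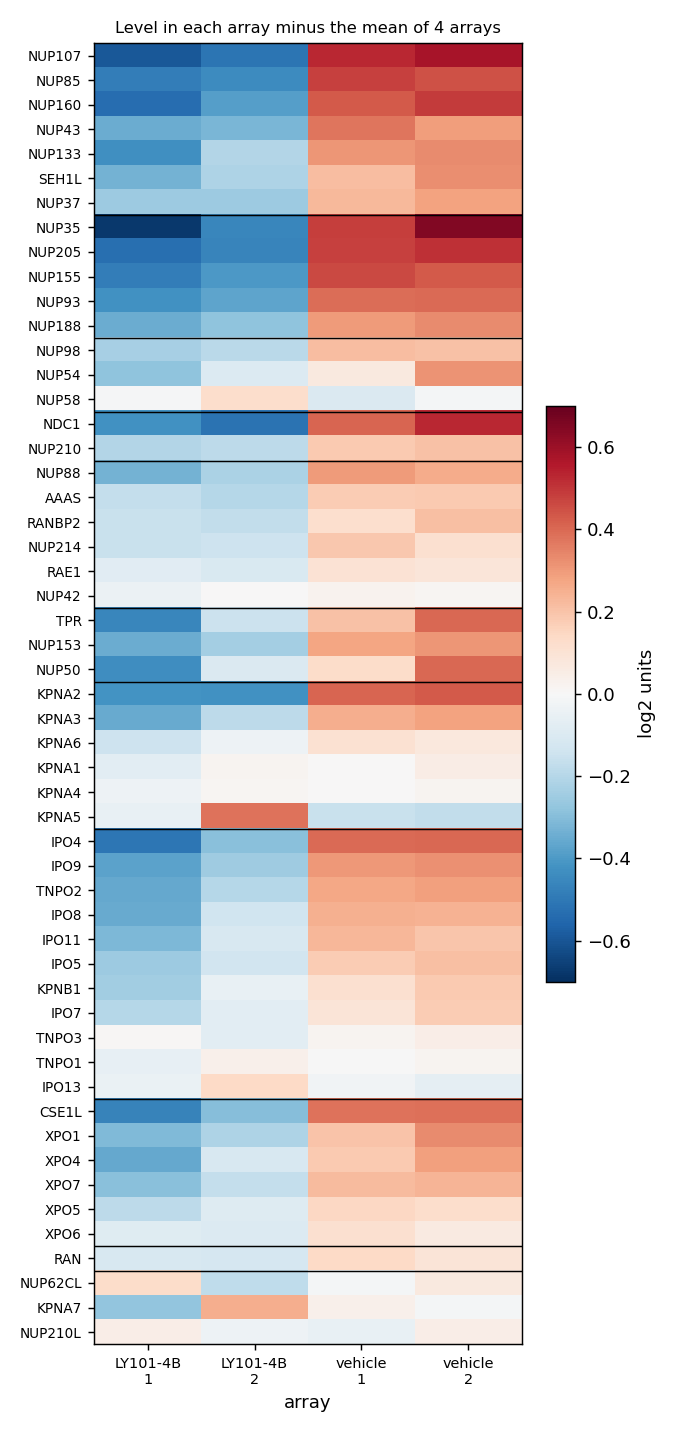
Level of each of the 53 genes in each array minus its mean over the 4 arrays (colour, log2 units), with the LY101-4B arrays left of the vehicle arrays and black lines between the groups of genes named in the text. Blue in the LY101-4B columns and red in the vehicle columns mark a fall; KPNA5 stands out as red in LY101-4B replicate 2 alone, at 7.15 against 6.71 in LY101-4B replicate 1.

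Importin alpha proteins recognise classical nuclear localisation signals and hand cargo to importin beta. Of 6 measured genes 2 fell, 0 rose and the values ran from -0.84 to 0.33. KPNA2, the importin alpha most linked to proliferation and often high in carcinomas, read 11.81 and 11.80 log2 units with LY101-4B, against 12.63 and 12.65 with vehicle. The replicates lay close together and the fall was 1.79-fold (-0.84 ± 0.08, SE; limma adjusted p 0.00248). A second, dimmer KPNA2 probe set fell by 0.89 log2 units (adjusted p 0.00232). KPNA3 read 8.96 and 9.13 with LY101-4B, against 9.57 and 9.60 with vehicle (1.45-fold, adjusted p 0.0156), a call lost on removal of any one vehicle array. Its close paralog KPNA4 read 10.28 and 10.33 with LY101-4B, against 10.31 and 10.34 with vehicle, so the groups overlapped (-0.02, or 0.08 under cyclic loess). KPNA1 (-0.05, or 0.04 under cyclic loess) and KPNA6 (-0.18), paralogs of KPNA5, did not pass. KPNA5 read 6.71 and 7.15 with LY101-4B, against 6.61 and 6.59 with vehicle. Its difference of 0.33 did not pass (adjusted p 0.208); without LY101-4B replicate 1 it was 0.55 and passed (adjusted p 0.0289).

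Of the 11 import receptors of the importin beta family 6 fell and 0 rose, with a median of -0.39. IPO4, an import receptor for histones and ribosomal proteins, read 7.89 and 8.10 log2 units with LY101-4B, against 8.79 and 8.80 with vehicle (1.74-fold, limma adjusted p 0.00558). IPO9, which carries H2A-H2B dimers, read 9.53 and 9.66 with LY101-4B, against 10.21 and 10.22 with vehicle (1.54-fold, adjusted p 0.00792). TNPO2, a receptor for RNA-binding proteins, read 8.28 and 8.44 with LY101-4B, against 8.91 and 8.92 with vehicle (1.47-fold, adjusted p 0.0136). In all 3 both LY101-4B arrays lay below both vehicle arrays, by more than the replicates differed. Groups did not overlap, in either direction, for 58.0% of all genes. IPO8 fell 1.41-fold, IPO11 1.34-fold and IPO5, also known as a ribosomal protein importer, 1.31-fold, with adjusted p between 0.0251 and 0.0394. Removal of any one vehicle array ended the calls on IPO9, TNPO2, IPO8, IPO11 and IPO5, removal of LY101-4B replicate 1 those on IPO8, IPO11 and IPO5, and cyclic loess those on IPO11 and IPO5.

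KPNB1, importin beta itself and the partner of all importin alpha proteins, had a difference of -0.30 and did not pass (10.69 and 10.88 log2 units with LY101-4B, against 11.05 and 11.12 with vehicle; limma adjusted p 0.105). IPO7 also did not pass (-0.27, adjusted p 0.110). TNPO1, the paralog of TNPO2 and carrier of hnRNP proteins, read 11.05 and 11.15 with LY101-4B, against 11.11 and 11.13 with vehicle. The groups of TNPO1 overlapped, and its difference was -0.02, or 0.09 under cyclic loess. The SR protein importer TNPO3 (-0.06, or 0.04 under cyclic loess) and IPO13 (0.09), which works in both directions, did not pass.

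The 6 exportins among the 53 genes had differences below 0, and 4 passed; XPOT, a further exportin outside the symbol rule, rose by 0.62 log2 units (limma adjusted p 0.0122). CSE1L, the exportin that returns importin alpha to the cytoplasm, read 10.98 and 11.15 log2 units with LY101-4B, against 11.83 and 11.83 with vehicle (1.70-fold, -0.76 ± 0.10, SE; limma adjusted p 0.00517). XPO1, or CRM1, the main exportin for leucine-rich export signals, read 10.98 and 11.07 with LY101-4B, against 11.49 and 11.62 with vehicle (1.44-fold, adjusted p 0.0157). XPO4, a carrier of the translation factor eIF5A, read 7.84 and 8.09 with LY101-4B, against 8.38 and 8.48 with vehicle (1.39-fold, adjusted p 0.0396). The groups were separate in all 3, by the least margin in XPO4, and did not overlap for 58.0% of all genes. XPO7 fell 1.37-fold (adjusted p 0.0216). The calls on XPO1, XPO4 and XPO7 ended on removal of any one vehicle array or of LY101-4B replicate 1. The pre-miRNA exporter XPO5 (-0.27, adjusted p 0.0928) did not pass, nor did the actin exporter XPO6, which read 10.51 and 10.51 with LY101-4B, against 10.71 and 10.66 with vehicle (-0.18, adjusted p 0.215).

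RAN, the GTPase that powers the cycle, read 11.76 and 11.76 log2 units with LY101-4B, against 12.02 and 11.97 with vehicle. The groups did not overlap, nor did those of 58.0% of all genes. The difference of -0.23 did not pass (limma adjusted p 0.124), and a dimmer RAN probe set gave -0.29 (adjusted p 0.0726). The tissue-restricted genes NUP62CL (-0.05), KPNA7 (-0.02) and NUP210L (0.01) did not pass, with overlapping groups in each. NUP210L read 4.13 and 4.05 with LY101-4B, against 4.03 and 4.13 with vehicle. No detection calls were used, so whether such values exceed background is not known.

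**Figure D3:**
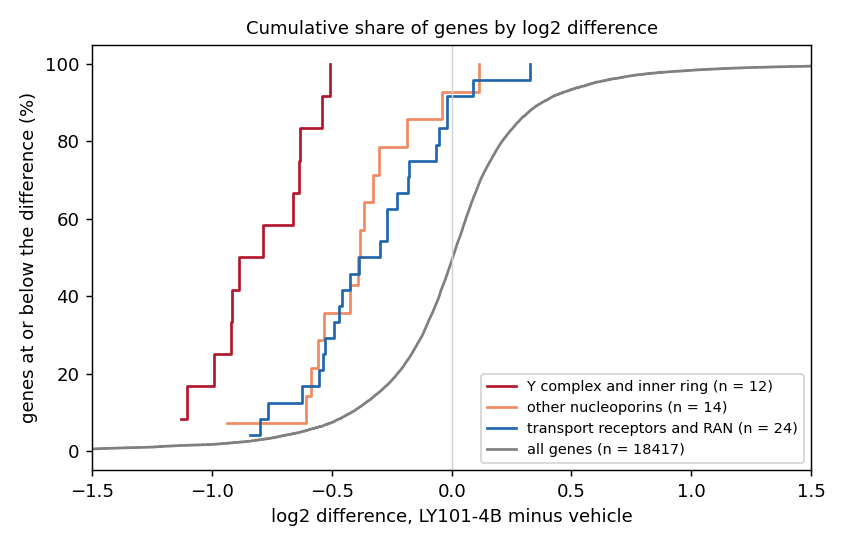
Cumulative share of genes (vertical axis, percent) at or below each log2 difference, LY101-4B minus vehicle, for the 12 genes of the Y complex and inner ring among the 53, the 14 other nucleoporins, the 24 transport receptor and RAN genes, and all 18417 genes. The medians stand at -0.84, -0.39, -0.34 and 0.00, and the axis is limited to differences between -1.5 and 1.5.

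Partner genes were read from lists of the Ran system, mRNA export and the nuclear envelope, 45 of 53 entries being measured. Of these 45 genes 20 fell, 2 rose and 23 did not pass, with a median of -0.27; of all genes 10.7% fell and 8.88% rose. The count of 20 was 6 without vehicle replicate 1, 6 without vehicle replicate 2, 12 without LY101-4B replicate 1 and 11 over all rows, and the count of 2 was 0 without vehicle replicate 1. In the list of other pore and Ran system genes 7 of 13 fell. RANBP1, which binds Ran-GTP and assists its GTPase-activating protein, read 10.11 and 10.06 log2 units with LY101-4B, against 11.19 and 11.20 with vehicle (2.16-fold, limma adjusted p 0.0013). RANGAP1, that GTPase-activating protein, read 8.20 and 8.24 with LY101-4B, against 8.87 and 9.01 with vehicle (1.64-fold, adjusted p 0.00562). For RAN itself the difference was -0.23, and whether it differs from those of its regulators was not tested. PHAX, the adaptor for snRNA export, fell 1.66-fold, a call lost on removal of any one vehicle array (adjusted p up to 0.0618).

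The 2 genes that rose were XPOT and SEC13. XPOT, the exportin for tRNA, read 11.15 and 11.23 log2 units with LY101-4B, against 10.47 and 10.67 with vehicle (1.54-fold, limma adjusted p 0.0122). SEC13, a Y complex subunit that is also part of the COPII vesicle coat, read 9.34 and 9.35 with LY101-4B, against 8.70 and 8.75 with vehicle (1.54-fold, adjusted p 0.00619). Of the 7 other Y complex genes among the 53, 7 fell and 0 rose. Of the 6 other exportins 4 fell, 0 rose and 2 did not pass. Of all genes 10.7% fell and 8.88% rose. Both calls were lost without vehicle replicate 1 (adjusted p 0.0933 for XPOT and 0.0609 for SEC13).

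For mRNA export 5 of 18 genes fell and 0 rose, whereas of all genes 10.7% fell and 8.88% rose. ALYREF, the adaptor of the TREX complex, read 10.60 and 10.66 log2 units with LY101-4B, against 11.51 and 11.53 with vehicle (1.85-fold, limma adjusted p 0.00225). POLDIP3 fell 1.51-fold, the TREX scaffold THOC2 1.48-fold, the helicase gene DDX39A 1.44-fold and CHTOP 1.27-fold, and each of these 4 calls ended on removal of any one vehicle array. The calls on THOC2 and CHTOP also ended without LY101-4B replicate 1 and over all rows. That on CHTOP ended as well without LY101-4B replicate 2, under cyclic loess and with a replicate block. In the nuclear lamina and envelope list 8 of 14 fell and 0 rose, beside the same shares of all genes. LMNB1, lamin B1, read 9.03 and 9.02 with LY101-4B, against 10.66 and 10.62 with vehicle, a fall of 3.07-fold (adjusted p 0.000601). TMPO, the lamina-associated LAP2, read 9.40 and 9.59 with LY101-4B, against 10.69 and 10.69 with vehicle (2.29-fold), and LMNB2 fell 2.07-fold. The linker gene SYNE2 fell 1.66-fold and BANF1, a DNA-bridging factor, 1.47-fold, and both calls ended on removal of any one vehicle array. The call on SYNE2 also ended over all rows, and that on BANF1 with the mean of its probe sets.

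**Figure D4:**
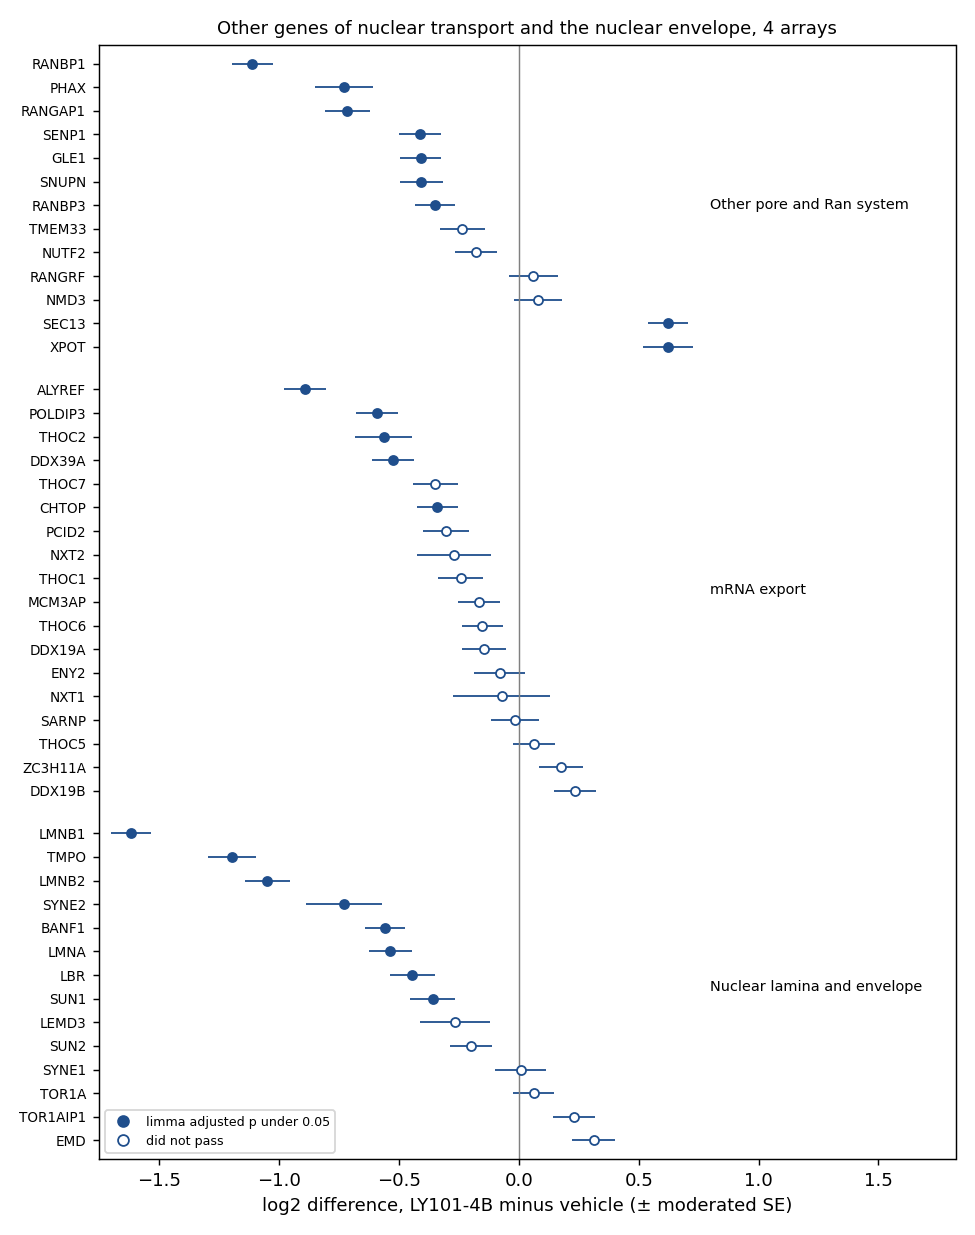
Log2 difference, LY101-4B minus vehicle (horizontal axis, bars are moderated SE, 2 arrays a group), for 45 partner genes in 3 lists; filled points passed at a limma adjusted p under 0.05. LMNB1 lies lowest at -1.62, and SEC13 and XPOT, each at 0.62, are the filled points above 0.

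Because the series concerns an E2F inhibitor, the 250 bases before the annotated start of each gene were searched for short letter patterns (RefSeq promoters, GRCh38.p14, both strands). For 47 of the 53 genes a promoter was matched by symbol; 11 of them have more than 1 annotated start, and the first listed was used. The E2F patterns were TTTCCCGC, TTTGGCGC, TTTCGCGC, TTTGCCGC, TTTGGCGG and TTTCCCGG. They stood in 5 of 47 promoters of these genes (10.6%), in 6.08% of 14239 promoters of measured genes and in 4.51% of all 35116 promoters. Of the genes that fell 4 of 29 held one, or 13.8%, against 1 of 18 of those that did not pass and 10.8% of the 1666 promoters of all genes that fell. Among the 11 scaffold promoters 1, that of NUP205, held one. TTTGAA, the letters of the cell-cycle homology region known from G2 and M phase genes, stood in 8 of the 29 promoters of genes that fell (27.6%), in 1 of the 18 others, in 12.1% of promoters of all genes that fell and in 10.6% of promoters of measured genes. The CCAAT box stood in 15 of the 29 promoters (51.7%), in 7 of the 18, in 41.1% of promoters of all genes that fell and in 34.4% of promoters of measured genes. CGCATGCG, a core of the NRF1 pattern, was in 3 of 47 promoters, in 4.68% of those of all genes that fell and in 2.57% of those of measured genes. These are matches of letters and not sites of binding.

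Promoters are shown for NUP107, which had the greatest fall in the Y complex and holds no E2F pattern in this window, and for KPNA2, which had the greatest fall of the transport receptors and holds one. Each is the 250 bases before the start on the gene's strand, from 5′ to 3′, at chr12:68686728-68686977 for NUP107 and at chr17:68035485-68035734 for KPNA2, both on the plus strand. Capitals mark any match to the letters named above on either strand. The other 4 promoters with an E2F pattern are shown as 60 bases around it, to compare where the match lies, with only the E2F match in capitals: chr7:135557857-135557916 (plus strand) for NUP205, chr12:30695982-30696041 (minus strand) for IPO8, chr5:62412703-62412762 (plus strand) for IPO11 and chr4:76148416-76148475 (minus strand) for NUP54.
NUP107: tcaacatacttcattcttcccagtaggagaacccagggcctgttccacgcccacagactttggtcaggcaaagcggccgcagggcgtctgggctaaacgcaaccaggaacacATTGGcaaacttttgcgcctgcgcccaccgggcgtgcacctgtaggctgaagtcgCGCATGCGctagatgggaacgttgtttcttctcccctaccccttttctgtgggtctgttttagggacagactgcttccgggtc
KPNA2: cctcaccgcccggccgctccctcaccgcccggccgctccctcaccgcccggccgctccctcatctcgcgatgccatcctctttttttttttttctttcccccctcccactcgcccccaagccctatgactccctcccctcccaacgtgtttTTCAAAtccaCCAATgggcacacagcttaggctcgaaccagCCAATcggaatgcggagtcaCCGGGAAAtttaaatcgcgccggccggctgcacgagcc
NUP205: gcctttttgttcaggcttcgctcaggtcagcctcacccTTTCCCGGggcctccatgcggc
IPO8: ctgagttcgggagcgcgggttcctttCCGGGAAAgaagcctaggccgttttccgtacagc
IPO11: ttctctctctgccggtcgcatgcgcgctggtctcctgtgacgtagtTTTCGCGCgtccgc
NUP54: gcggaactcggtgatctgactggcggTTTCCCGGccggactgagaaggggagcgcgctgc

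Positions are counted from the start, with -1 the base before it. In KPNA2 the E2F match, on the strand opposite the gene, spans positions -38 to -31, downstream of 2 CCAAT boxes and a TTTGAA match. In NUP107 the NRF1 letters span -83 to -76, and a CCAAT box on the opposite strand -138 to -134. The pattern TTTCCCGG was the one found in KPNA2, NUP205, IPO8 and NUP54, and TTTCGCGC the one found in IPO11. Of these 5 genes KPNA2, NUP205, IPO8 and IPO11 fell, and NUP54 did not pass.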

How the data were processed

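The deposited table holds log2 expression values that the authors made with RMA, per the submitters' processing notes; the RMA version and any filters were not given in the sources used here. This procedure compresses differences at low signal. Per the labels' protocols, RNA was labelled with a FlashTag kit, usually meant for small RNA. All columns were mapped to samples.

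Of 33297 rows, 21214 had at least 1 gene symbol in the platform annotation and 19460 had exactly 1, covering 18417 genes; 0 symbols needed updating through gene identifiers. A linear model with treatment as its term was fitted to the 4 arrays across all annotated probe sets with limma 3.58.1 in R 4.3.3 (2 residual degrees of freedom, prior worth 3.75), with 2-sided p-values adjusted by the Benjamini-Hochberg method at a threshold of 0.05, and tested on simulated data. Folds are 2 to the power of the log2 difference, and SE is moderated. The number of arrays limits the precision. An exact permutation test of 2 arrays against 2 cannot go below p = 0.333 and was not used.

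The genes, the partner lists and their tests were chosen with earlier results of these data known. Differences are named for every gene of interest. Values per array are given, in each functional group, for up to 3 called genes with the largest change and the gene with the smallest, and for KPNB1 and KPNA5, chosen after their values were seen. From each partner list up to 5 called genes with the largest change were named. Alternatives were median centring, cyclic loess, all rows, the brighter 50% of probe sets, an intensity trend, a robust prior, the mean of a gene's probe sets, a replicate block and leaving out each array.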

Additional observations from a re-analysis of the deposited data

How the results depend on the processing

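The median difference of the 53 genes stayed between -0.52 and -0.38 under every alternative run. The count of 31 that fell was 18 over all rows and between 11 and 31 when 1 array was left out, and ranged from 28 under cyclic loess to 40 with an intensity trend otherwise. The count of 0 that rose was between 0 and 1 without 1 array, the 1 being KPNA5. The 20 partner genes that fell were 11 over all rows and between 6 and 19 without 1 array; the 2 that rose were 5 under cyclic loess, 5 in the brighter 50% of probe sets, 5 with an intensity trend and between 0 and 2 without 1 array. A fit of 3 arrays takes the spread of the lone array from the other group. The fit over all rows drew both its prior and its adjustment from 33297 rows. The cause of the changed counts was not tested. Over all genes 1973 fell and 1636 rose; the counts were 981 and 846 over all rows, 766 and 651 without vehicle replicate 1, and 715 and 734 without vehicle replicate 2. Of the 31 calls 11 held under all alternatives, and 10 of the 22 genes that did not pass did so under at least 1: NUP54, RANBP2, NUP214, NUP50, KPNA5, KPNB1, IPO7, XPO5, XPO6 and RAN.

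Signs turned only for genes with differences near 0 that did not pass. Cyclic loess gave 0.0415 for KPNA1, 0.0818 for KPNA4, 0.0046 for NUP42, 0.0900 for TNPO1 and 0.0389 for TNPO3, and median centring -0.0440 for NUP210L. Without 1 array, IPO13 ranged from -0.0038 to 0.18, KPNA4 from -0.0466 to 0.0055, KPNA7 from -0.29 to 0.24, NUP210L from -0.0410 to 0.0550, NUP62CL from -0.20 to 0.10 and TNPO1 from -0.0657 to 0.0275. Numbers in the titles are not said to pair the cultures; the difference of replicate 1 minus 2 correlated at r = 0.116 between the groups across probe sets, with 2 pairs. With a replicate block 33 of the 53 genes fell and 0 rose, and 17 and 2 of the partner genes; NUP50 passed with the block (adjusted p 0.0149). No group had enough arrays for a check of outlying samples.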
